A study of Mus musculus with 10 samples.

Results

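T cell receptor gene segments are the short germline genes from which each T cell builds its antigen receptor, and their transcripts were examined here in Treg, the regulatory CD4 T cells whose identity rests on the transcription factor Foxp3, sorted from mouse spleen and lymph nodes. The members were the rows whose names mark them as variable (V), diversity (D), joining (J) or constant (C) segments of the alpha, beta, gamma or delta chain and whose level was above 0 in at least 2 of 4 libraries. Of 32767 genes in each table, 145 carried such a name and 70 were members. The members comprised 33 alpha V, 19 beta V, 5 delta V and 6 gamma V segments together with 1 alpha, 2 beta and 4 gamma constant genes. The other 75 names were listed at 0 in every library, namely 59 alpha J segments, 14 beta J segments, Trbv10 and Tcrg-V7.

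The dKO libraries came from mice of genotype Foxp3cre/wt Tcf7fl/fl Lef1fl/fl, and the WT libraries from mice of genotype Foxp3cre/wt Tcf7wt/wt Lef1wt/wt, with 2 libraries per group. Both groups were on the C57BL/6 strain, carried 1 Foxp3-cre allele and were sorted as Treg by the YFP reporter that comes with that allele. Foxp3 thus drove the deletion of Tcf7 and Lef1, which encode the related transcription factors TCF1 and LEF1. Since Foxp3 is X-linked and the mice carry an unmodified Foxp3 allele as well, they also hold Treg that use that allele and no cre, and these are not part of the YFP sort. Age was not given, and the labels leave unsaid whether the replicates were separate animals, and p-values reflect a spread between libraries that could be technical alone. The series holds 10 libraries in all, and the 6 libraries of Treg subsets were not used.

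The alpha chain is assembled from a V and a J segment and the beta and delta chains from V, D and J segments, by a DNA recombination in developing thymocytes that needs the RAG enzymes. The joined exon is then spliced to a constant segment, so a conventional T cell makes an alpha beta receptor and a gamma delta T cell makes a gamma delta receptor. Gamma genes can be rearranged and transcribed in alpha beta T cells too. In the mouse gamma locus, V segments lie in clusters with the J and C segments that they usually join, while the delta locus lies inside the alpha locus.

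Levels are in FPKM, the sequenced fragments of a gene divided by its transcript length in kilobases and scaled to the number of mapped fragments. Differences are dKO minus WT on the log2(FPKM + 1) scale, which understates the change of weakly expressed genes, and were tested with limma over the 10710 genes that reached 1 FPKM in 2 or more libraries. Between 10435 and 10678 genes per library reached 1 FPKM. Absolute depth is unknown, but the lowest values gave dKO replicates 1 and 2 a depth of 67.7% and 71.1% of that of WT replicate 1, and WT replicate 2 a depth of 72.3%. The sort marker Foxp3 was at 126 and 114 FPKM in dKO Treg and 120 and 106 FPKM in WT Treg. Of the targeted genes, Lef1 was at 71.6 and 62.8 FPKM in dKO Treg and 160 and 167 FPKM in WT Treg (limma adjusted p = 0.0159), and Tcf7 at 316 and 272 FPKM in dKO Treg and 456 and 501 FPKM in WT Treg (limma adjusted p = 0.0805). Transcripts of both genes were thus still present in dKO Treg, and Tcf7 missed the threshold of 0.05. The summed level of 8 myeloid markers was 4.96 and 70.1 FPKM in dKO Treg and 8.36 and 3.31 FPKM in WT Treg, which sets dKO replicate 2 apart. That of 10 CD8 T and NK cell markers was 126 and 149 FPKM in dKO Treg and 87.3 and 55.4 FPKM in WT Treg, with Cd8a at most 0.488 FPKM and Cd8b1 between 14.1 and 16.5 FPKM in the 4 libraries. In that list Ccl5 was at 65.4 and 84.1 FPKM in dKO Treg and 35.1 and 16.9 FPKM in WT Treg, and Prf1 at 17.5 and 10.9 FPKM in dKO Treg and 3.68 and 4.39 FPKM in WT Treg. Cd8a and Gzma were also higher in both dKO libraries. Eomes went the other way, at 0.592 and 0.838 FPKM in dKO Treg and 1.43 and 1.37 FPKM in WT Treg. For Cd8b1, Nkg7, Klrk1, Klrd1 and Ncr1 the groups overlapped. That of 7 B cell markers, nearly all of it Ighm, was 288 and 263 FPKM in dKO Treg and 323 and 291 FPKM in WT Treg, with Ms4a1 at most 0.342 FPKM. Cd79b of that list was at 22.5 and 23.3 FPKM in dKO Treg and 14.1 and 14.6 FPKM in WT Treg (limma adjusted p = 0.0619). Their part in the results on the segments was not tested.

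Of the 70 members, 52 passed the filter on low values. Of these, 2 passed the adjusted threshold as lower in dKO (3.85%), against 0.383% of all genes tested. None of the 52 was called higher by limma, against 0.317% of all genes tested, and 0.7% of all genes were called in either direction. Both called members, Tcrg-C2 and Tcrg-C4, encode gamma constant regions, and both passed the filter through the WT libraries alone, since their dKO levels were under 1 FPKM. Another 5 tested members had an unadjusted limma p under 0.05, namely Tcrg-C1, Trav2, Trav16, Trbv26 and Trbv29. With these, 7 members (13.5%) had an unadjusted p under 0.05, against 17.3% of all genes tested. All 7 were lower in dKO, against 8.63% of all genes tested, and 0 were higher, against 8.72%.

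Tcrg-C2 and Tcrg-C4 lie on chromosome 13, at chr13:19304649-19307551 on the minus strand and chr13:19344558-19352756 on the plus strand of GRCm38. Tcrg-C1, whose first constant exon is nearly the same as that of Tcrg-C2, lies at chr13:19214103-19217024 on the plus strand. The first 150 bases of the first constant exon are shown for the 3 genes, from the GENCODE vM21 transcripts, because the values below turn on telling these genes apart. They stand at chr13:19307402-19307551 (minus strand) for Tcrg-C2, chr13:19214103-19214252 (plus strand) for Tcrg-C1 and chr13:19344558-19344707 (plus strand) for Tcrg-C4. Each is written 5′ to 3′, and capitals mark the bases that differ from Tcrg-C2, 4 in Tcrg-C1 and 16 in Tcrg-C4.
Tcrg-C2: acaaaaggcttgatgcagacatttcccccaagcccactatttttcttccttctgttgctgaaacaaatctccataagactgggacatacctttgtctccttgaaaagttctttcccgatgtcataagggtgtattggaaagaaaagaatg
Tcrg-C1: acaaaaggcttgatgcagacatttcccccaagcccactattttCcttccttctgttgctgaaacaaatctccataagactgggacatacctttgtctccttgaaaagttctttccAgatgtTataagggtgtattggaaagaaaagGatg
Tcrg-C4: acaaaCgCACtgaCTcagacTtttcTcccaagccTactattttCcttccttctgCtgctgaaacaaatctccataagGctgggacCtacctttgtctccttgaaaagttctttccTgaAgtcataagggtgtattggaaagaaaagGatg
Over the 330 bases of this exon, Tcrg-C1 and Tcrg-C2 were identical at 97.3%, Tcrg-C2 and Tcrg-C4 at 81.5%, and Tcrg-C1 and Tcrg-C4 at 82.1%. Of all stretches of 50 bases in the transcript, 25.4% of those of Tcrg-C2 and 34.2% of those of Tcrg-C1 also occurred in another annotated gene. Tcrg-C2 shared the most with Tcrg-C1 (157 stretches) and Tcrg-C1 the most with Tcrg-C3 (194 stretches). Reads could thus be split between Tcrg-C1, Tcrg-C2 and Tcrg-C3. Tcrg-C4 shared none.

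Transcripts of 2 of the 4 gamma constant genes were lower in dKO Treg, and of the remaining 2, Tcrg-C1 did not pass the test and Tcrg-C3 was too low to be tested. Tcrg-C4 was at 0.398 and 0.281 FPKM in dKO Treg and at 6.27 and 4.17 FPKM in WT Treg. The groups were far apart, and the spread within WT was the wider. The means were 0.339 ± 0.0825 FPKM in dKO Treg and 5.22 ± 1.49 FPKM in WT Treg (SD, n = 2 each), so that the dKO mean was 0.065 of the WT mean. On the log2(FPKM + 1) scale Tcrg-C4 fell by 2.20 (SE 0.22, limma adjusted p = 0.0389).

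Tcrg-C2 was at 0.694 and 0.703 FPKM in dKO Treg and at 4.41 and 4.05 FPKM in WT Treg. The replicates of each group lay close together, and the groups did not overlap. The means were 0.699 ± 0.0065 FPKM in dKO Treg and 4.23 ± 0.257 FPKM in WT Treg (SD, n = 2 each), a dKO mean of 0.165 of the WT mean. The log2 difference was -1.62 (SE 0.14, limma adjusted p = 0.0288). For both genes the direction was the same without any of the 4 libraries, but with 3 libraries neither call held. The limma adjusted p then ran from 0.0726 to 0.320 for Tcrg-C2 and from 0.0927 to 0.270 for Tcrg-C4.

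Tcrg-C1 was the gamma constant gene with the highest level and had the smallest log2 difference of the 3 tested. It was at 5.74 and 5.85 FPKM in dKO Treg and at 7.35 and 8.17 FPKM in WT Treg. Both dKO libraries were below both WT libraries, with a log2 difference of -0.36 (SE 0.10, limma adjusted p = 0.207). Tcrg-C3 was listed at 0 and 0.102 FPKM in dKO Treg and at 0.187 and 0.145 FPKM in WT Treg. The groups did not overlap, but these values are near 0 and were not tested. Of its 50-base stretches, 36.2% occur in another annotated gene.

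The ratios between gamma constant genes in the same library show how unequal these differences were. The level of Tcrg-C2 per unit of Tcrg-C1 was 0.121 and 0.120 in dKO Treg and 0.600 and 0.495 in WT Treg. The level of Tcrg-C4 per unit of Tcrg-C1 was 0.0692 and 0.0480 in dKO Treg and 0.853 and 0.511 in WT Treg. Tcrg-C4 thus stood closer to Tcrg-C1 in WT replicate 1 than in WT replicate 2, where they were at 4.17 and 8.17 FPKM. In both dKO libraries Tcrg-C4 was a small part of the gamma constant transcripts.

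Summed over the 4 gamma constant genes, the level was 6.84 and 6.94 FPKM in dKO Treg and 18.2 and 16.5 FPKM in WT Treg. This sum equalled 0.438% and 0.497% of the level of Trac, the alpha constant gene, in dKO Treg, and 1.19% and 1.02% of it in WT Treg. Gamma constant transcripts were therefore a small fraction of receptor transcripts in every library. The log2 ratio of the group means of the sum was -1.33, and without Tcrg-C1, the highest member, it was -3.14. With 2 libraries against 2, the exact permutation test cannot go below p = 0.333, two-sided, which is the value it gave.

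**Figure D1:**
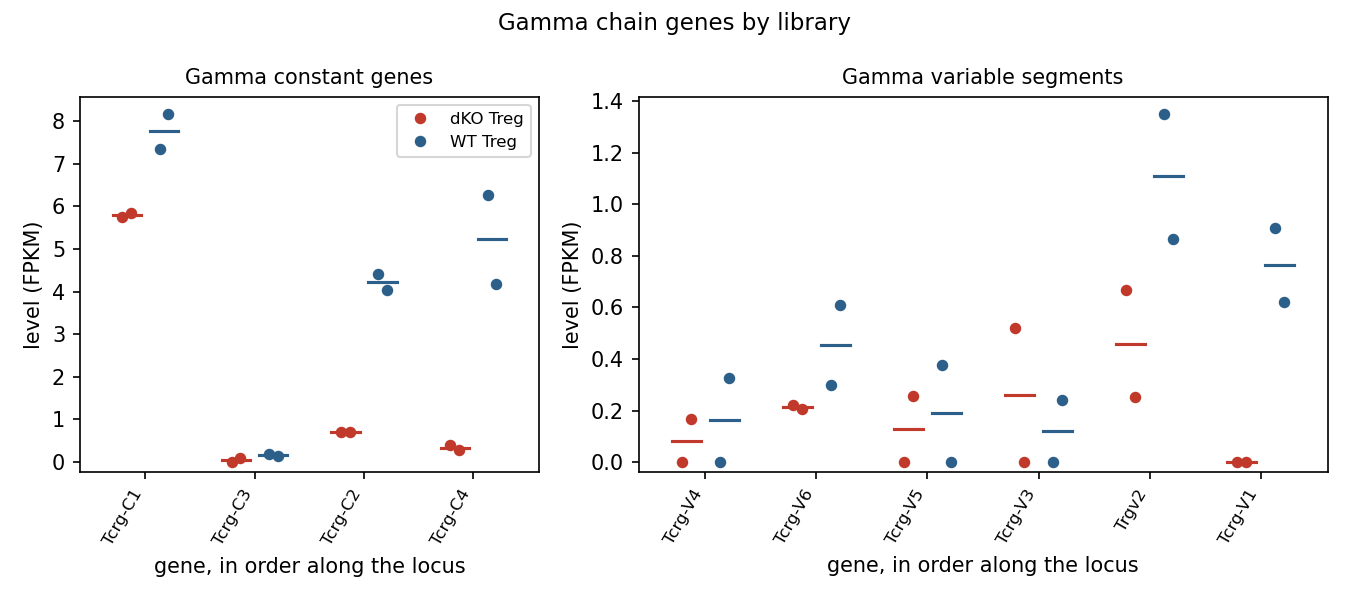
Levels of the gamma constant and gamma V segments that were members, in FPKM, in locus order, with a point for each library and a line at the group mean, dKO left of WT. The 2 dKO libraries lie below 1 FPKM for Tcrg-C2 and Tcrg-C4, where the WT libraries lie between 4.05 and 6.27 FPKM, while for Tcrg-C1 the dKO libraries lie at 5.74 and 5.85 FPKM and the WT libraries at 7.35 and 8.17 FPKM.

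The gamma V segments, which supply the antigen-binding part of the gamma chain, were all under 1.5 FPKM, and none of the 6 members passed the filter. Trgv2, at chr13:19336573-19337167 on the minus strand, was the highest of them on average. It was at 0.668 and 0.251 FPKM in dKO Treg and at 1.35 and 0.867 FPKM in WT Treg. Tcrg-V1, at chr13:19339989-19340454, is the V segment next to Tcrg-C4, and it was listed at 0 in both dKO libraries, against 0.910 and 0.621 FPKM in WT Treg. It was a member through the WT libraries alone, so its groups could not overlap. Tcrg-V6 was at 0.221 and 0.206 FPKM in dKO Treg and at 0.298 and 0.611 FPKM in WT Treg. For these 3 segments the groups did not overlap, but none was high enough to be tested. Both dKO libraries were below both WT libraries in 24.2% of all genes tested. That share covers only genes that passed the filter, so it is no direct background for these 3 segments. The other 3, Tcrg-V3, Tcrg-V4 and Tcrg-V5, were each listed at 0 in 1 dKO library and 1 WT library and reached at most 0.522 FPKM.

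The summed level of the 6 gamma V segments was 1.41 and 0.879 FPKM in dKO Treg and 2.94 and 2.67 FPKM in WT Treg. The groups did not overlap, and the log2 ratio of their means was -1.29 (exact permutation p = 0.333, two-sided, the smallest that 2 libraries against 2 allow). Tcrg-V1, a member through the WT libraries alone, is part of this sum. In locus order the annotation places Tcrg-V7, Tcrg-V4, Tcrg-V6 and Tcrg-V5 before Tcrg-C1, then Tcrg-V3 and Tcrg-C3, then Tcrg-C2 and Trgv2 on the opposite strand, and last Tcrg-V1 and Tcrg-C4. Both called constant genes thus lie at the far end of the locus from the Tcrg-C1 cluster. The next gene beyond Tcrg-C4, Stard3nl, was chosen after its values were seen. It was at 22.7 and 21.5 FPKM in dKO Treg and 20.2 and 17.5 FPKM in WT Treg (limma adjusted p = 0.346). Elmo1, farther on that side, went the other way, at 57.5 and 55.6 FPKM in dKO Treg and 62.0 and 64.1 FPKM in WT Treg (limma adjusted p = 0.322). Amph, on the other side of the locus, was at most 0.172 FPKM, and the groups overlapped.

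Gamma constant transcripts also mark gamma delta T cells, and in bulk libraries fewer cells of a type and less RNA per cell cannot be told apart. Of 6 gamma delta T cell markers that are not receptor segments (Sox13, Cd163l1, 5830411N06Rik, Blk, Il17a and Il23r), none was high enough to be tested, and Il17a was listed at 0 in all 4 libraries. Their summed level was 0.840 and 0.771 FPKM in dKO Treg and 0.450 and 1.21 FPKM in WT Treg. The groups overlapped in this sum. The delta constant gene Trdc was not analysed here.

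Of the 5 delta V segments, which lie on chromosome 14 among the alpha V segments, 2 were high enough to be tested (Trdv1 and Trdv2-2), and neither passed the test. Trdv1 was the highest, at 8.44 and 4.98 FPKM in dKO Treg and 13.1 and 9.33 FPKM in WT Treg. Both dKO libraries were below both WT libraries, but the replicates of each group were spread widely, and the log2 difference of -0.68 (SE 0.27) had a limma adjusted p of 0.297. Trdv2-2 was at 3.44 and 1.43 FPKM in dKO Treg and 1.04 and 2.14 FPKM in WT Treg. Trdv5 was at 0.805 and 0 FPKM in dKO Treg and 0.657 and 0.602 FPKM in WT Treg, and Trdv2-1 and Trdv4 were each listed at 0 in 1 dKO library and 1 WT library. The groups overlapped for these 4 segments. The summed level was 12.9 and 6.56 FPKM in dKO Treg and 15.1 and 12.8 FPKM in WT Treg, so that dKO replicate 1 lay above WT replicate 2. The log2 ratio of the group means of the sum was -0.52, and without Trdv1 it was 0.15.

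Trdv2-2 moved from library to library with 1 alpha V segment, Trav15-2-dv6-2, whose name marks it as usable by the alpha and the delta chain. Trav15-2-dv6-2 was at 4.06 and 1.69 FPKM in dKO Treg and 1.22 and 2.51 FPKM in WT Treg. Its level divided by that of Trdv2-2 was 1.180 and 1.178 in dKO Treg and 1.176 and 1.174 in WT Treg. Among 1711 pairs of the 59 members above 0 in every library, this was the only pair whose ratio stayed within 0.03 log2 units over the 4 libraries. The longest run of bases that their annotated transcripts share is 11. The pair was chosen after its values were seen, and the cause was not tested.

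The alpha and beta constant genes, which end every conventional receptor transcript, were among the highest members and did not pass the test. Trac, at chr14:54220521-54224206, was at 1559 and 1395 FPKM in dKO Treg and 1531 and 1622 FPKM in WT Treg, with a log2 difference of -0.10 (SE 0.08, limma adjusted p = 0.610). Trbc2, at chr6:41546730-41548352, was at 1619 and 1624 FPKM in dKO Treg and 1464 and 1659 FPKM in WT Treg, with a log2 difference of 0.06 (SE 0.08, limma adjusted p = 0.769). In both genes the groups overlapped.

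Trbc1, at chr6:41538218-41539881, was at 612 and 659 FPKM in dKO Treg and 663 and 716 FPKM in WT Treg. The higher dKO library was narrowly below the lower WT library, with a log2 difference of -0.12 (SE 0.08, limma adjusted p = 0.488). A beta chain uses the constant gene of the cluster that its J segment belongs to, and the share of Trbc1 in the summed level of Trbc1 and Trbc2 was 27.4% and 28.9% in dKO Treg and 31.2% and 30.1% in WT Treg. The first constant exons of the pair are identical at 374 of 375 bases, and 41.1% of the 50-base stretches of Trbc1 occur elsewhere, so this share depends on how the authors' counting split such reads.

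The 19 beta V segments were transcribed at up to 477 FPKM, and none passed the test. By limma, 2 had an unadjusted p under 0.05 (Trbv26 and Trbv29), where 17.3% of all genes tested did. Trbv13-2, the highest, encodes a V beta 8 segment common in C57BL/6 mice and was at 441 and 413 FPKM in dKO Treg and 415 and 477 FPKM in WT Treg. It made up 15.5% and 15.96% of the summed beta V level in dKO Treg and 16.1% and 15.6% of it in WT Treg. Trbv15 followed with 257 and 240 FPKM in dKO Treg and 224 and 270 FPKM in WT Treg. Trbv31, which lies downstream of the constant genes in the opposite orientation, was at 235 and 211 FPKM in dKO Treg and 223 and 240 FPKM in WT Treg. In all 3 the groups overlapped, and the log2 differences were -0.06, 0.01 and -0.05.

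The lowest beta V member was Trbv21, at 1.47 and 0.393 FPKM in dKO Treg and 1.01 and 1.56 FPKM in WT Treg. Trbv30 had the widest spread within a group among beta V segments of at least 5 FPKM, at 22.9 and 21.1 FPKM in dKO Treg and 18.6 and 31 FPKM in WT Treg. Trbv29 and Trbv26, chosen after their values were seen, had the most negative log2 differences of the class. Trbv29 was at 68.9 and 71.1 FPKM in dKO Treg and 80.4 and 95.2 FPKM in WT Treg, with a log2 difference of -0.32 (SE 0.10, limma adjusted p = 0.224). Trbv26 was at 113 and 101 FPKM in dKO Treg and 125 and 141 FPKM in WT Treg, with a log2 difference of -0.31 (SE 0.10, limma adjusted p = 0.222).

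**Figure D2:**
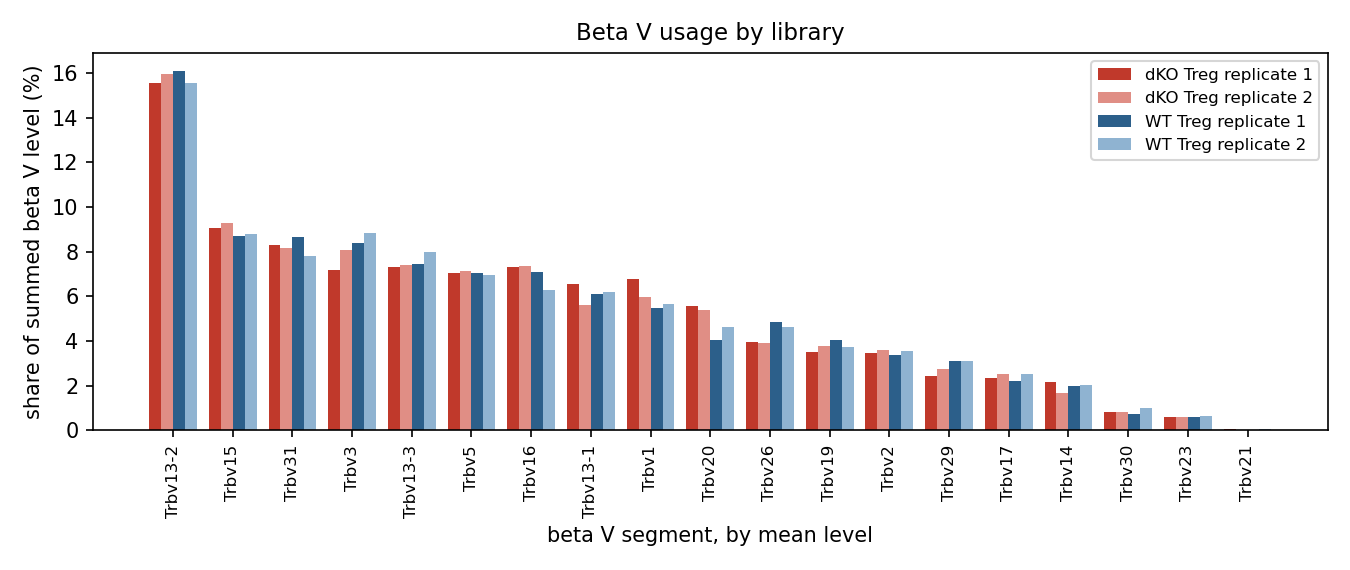
Share of each beta V segment in the summed beta V level of its library, in percent, with dKO left of WT. Trbv13-2 takes between 15.5% and 16.1% in each of the 4 libraries, and for most segments the bars of the 4 libraries are close in height.

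The summed beta V level was 2838 and 2590 FPKM in dKO Treg and 2579 and 3063 FPKM in WT Treg. Divided by the summed beta constant level, it was 1.27 and 1.13 in dKO Treg and 1.21 and 1.29 in WT Treg, and the groups overlapped in both measures. Whole libraries shifted the class together. WT replicate 2 was above WT replicate 1 in 19 of 19 beta V segments, and dKO replicate 1 was above dKO replicate 2 in 17 of 19. Log2 differences were negative for 15 of the 19, and these segments did not vary independently of each other.

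The evenness of usage was described by the effective number of segments (the inverse Simpson index, the number of equally used segments that would give the same concentration). For beta V it was 12.9 and 12.7 in dKO Treg and 12.7 and 12.95 in WT Treg. The difference of the means was -0.04 (exact permutation p = 1, two-sided). The share of the summed beta V level that would have to move between segments to turn one library into another was 2.70% between the dKO replicates and 2.78% between the WT replicates. Between a dKO and a WT library it ran from 3.41% to 4.39%. All 4 distances between groups were larger than both distances within a group, and this was given no test.

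The 33 alpha V segments were spread over a wider range of levels, up to 32.9 FPKM. Of the 25 that were tested none passed, and 2 had an unadjusted limma p under 0.05 (Trav2 and Trav16), where 17.3% of all genes tested did. Only 33 of 128 annotated alpha V genes could be ranked. Trav13-1 was the highest of these, at 32.9 and 22.1 FPKM in dKO Treg and 23.9 and 29.1 FPKM in WT Treg. Trav14n-3 was at 24.2 and 21.7 FPKM in dKO Treg and 22.5 and 29.2 FPKM in WT Treg. Trav14-1 was at 24.6 and 24.0 FPKM in dKO Treg and 20.3 and 24.4 FPKM in WT Treg. The groups overlapped for these 3, which together with the other leading segments are close in level, so their order is not set beyond the spread between replicates. Since 45.4% of the 50-base stretches of Trav13-1 and 46.2% of those of Trav14n-3 occur in other annotated genes, their levels also depend on how shared reads were assigned.

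Trav2 had the most negative log2 difference of the class. It was at 3.76 and 2.21 FPKM in dKO Treg and 5.23 and 5.21 FPKM in WT Treg. The groups did not overlap, and the log2 difference was -0.67 (SE 0.21, limma adjusted p = 0.230). Trav2 shares no stretch of 50 bases with another annotated gene. Trav16, chosen after its values were seen, was at 6.52 and 5.68 FPKM in dKO Treg and 8.01 and 8 FPKM in WT Treg, with a log2 difference of -0.35 (SE 0.11, limma adjusted p = 0.227). Trav8-1 was at 14.2 and 9.55 FPKM in dKO Treg and 16.3 and 15.6 FPKM in WT Treg, with a log2 difference of -0.42 (SE 0.19, limma adjusted p = 0.335). Here 60.6% of the 50-base stretches occur in other genes.

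Trav19, Trav13-2 and Trav8d-2 were named because their replicates within a group differed by a large ratio. Their spread between replicates thus follows from the choice. Trav19 was at 15.3 and 7.92 FPKM in dKO Treg and 8.82 and 9.30 FPKM in WT Treg. Trav13-2 was at 11.3 and 6.07 FPKM in dKO Treg and 8.33 and 6.78 FPKM in WT Treg. Trav8d-2 was at 3.44 and 5.90 FPKM in dKO Treg and 4.93 and 6.90 FPKM in WT Treg. In these 3 the groups overlapped, and the limma adjusted p ran from 0.603 to 0.847.

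**Figure D3:**
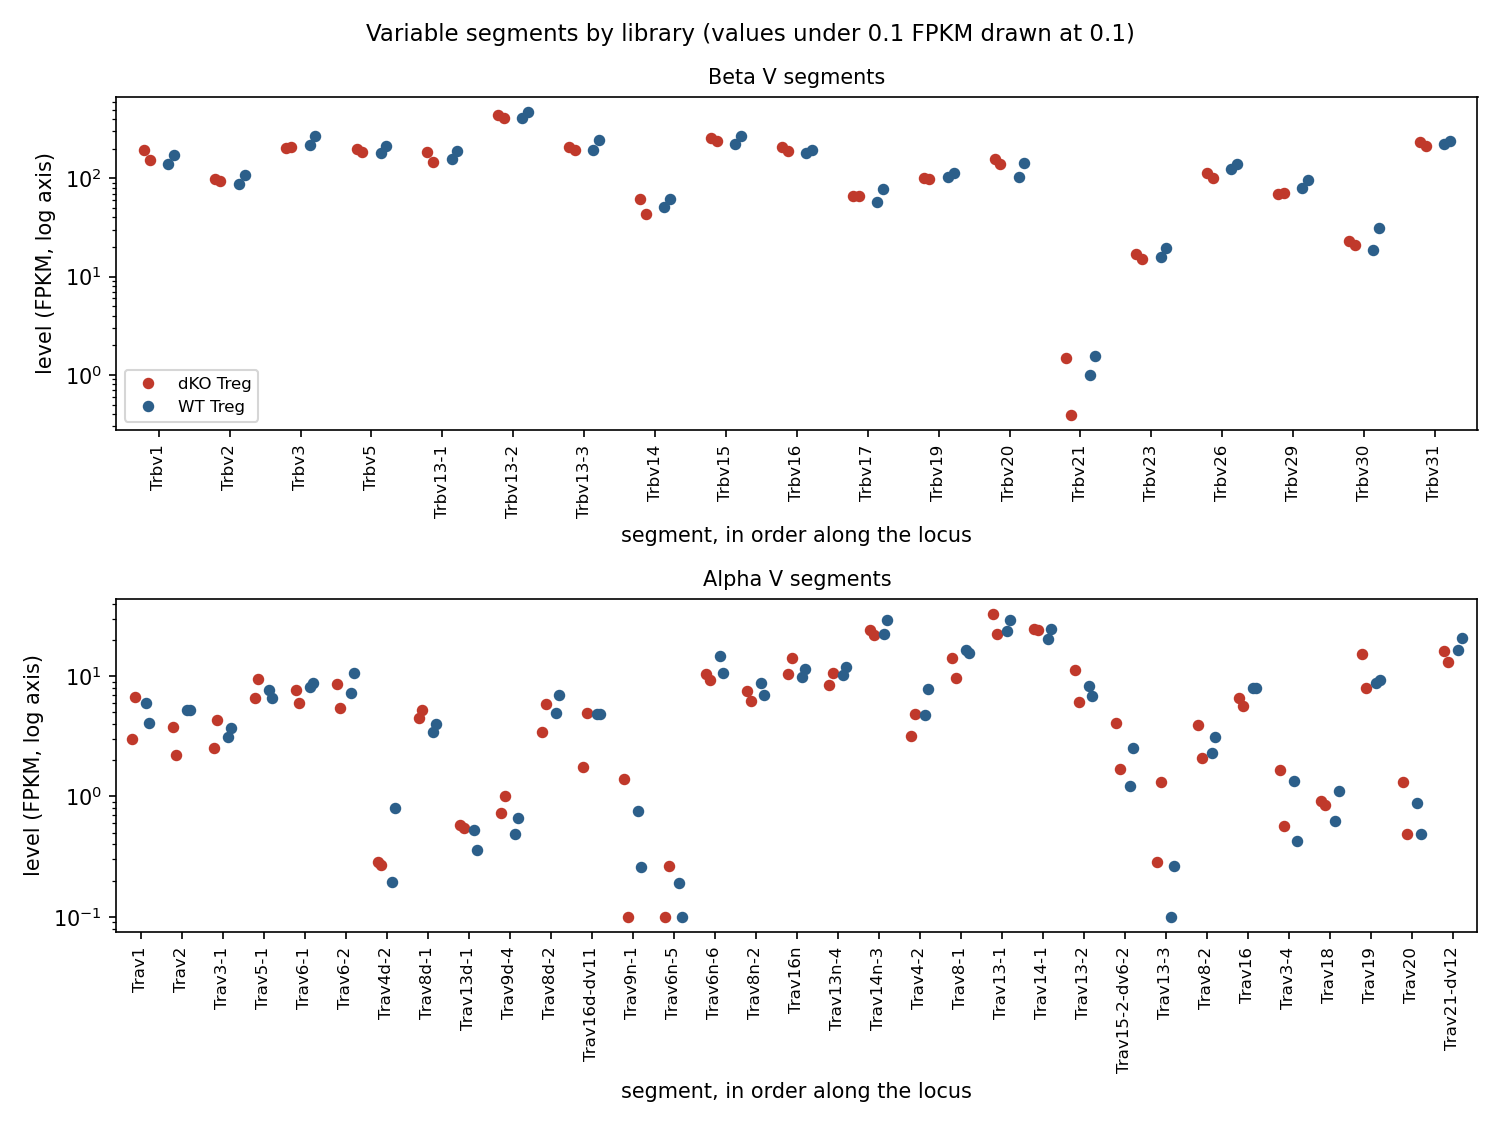
Levels of the alpha V and beta V segments in FPKM on a log axis, 1 point per library, with dKO and WT in separate colours. Beta V segments reach 477 FPKM and alpha V segments 32.9 FPKM, and within both classes the dKO and WT points lie over each other for most segments. Values under 0.1 FPKM are drawn at 0.1 FPKM.

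Summed over the class, alpha V transcripts were at 242 and 214 FPKM in dKO Treg and 232 and 257 FPKM in WT Treg. Divided by Trac, the sum was 0.155 and 0.154 in dKO Treg and 0.151 and 0.158 in WT Treg. It was far below the corresponding ratio of the beta chain, and only 33 of 128 annotated alpha V genes, against 20 of 35 annotated beta V genes, have a row in these tables. The effective number of alpha V segments was 15.5 and 17.0 in dKO Treg and 17.5 and 16.2 in WT Treg, which overlapped. The share of the summed level that would have to move was 14.7% between the dKO replicates and 9.02% between the WT replicates. Between a dKO and a WT library it ran from 11.1% to 12.2%, so the 2 dKO replicates were less alike than any dKO library was to a WT library.

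The class also holds 5 members annotated as pseudogenes. Their mean level over the 4 libraries had a median of 0.600 FPKM and reached 2.85 FPKM. The 28 members annotated as genes had a median of 7.21 FPKM and reached 27.0 FPKM.

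Trav1, the V segment of the receptor of mucosal-associated invariant T cells, was at 2.98 and 6.72 FPKM in dKO Treg and 6.03 and 4.10 FPKM in WT Treg (limma adjusted p = 0.903). Traj33, the J segment of that receptor, and Traj18, the J segment of the invariant NKT cell receptor, were listed at 0 in every library, like the other alpha J and beta J segments. Traj18, Traj33 and the beta J segment Trbj2-7 are shown whole because their length bears on this. They lie at chr14:54200777-54200842, chr14:54185358-54185414 and chr6:41543810-41543856 on the plus strand of GRCm38, and the sequences are those of GENCODE vM21, 5′ to 3′ with no base marked.
Traj18: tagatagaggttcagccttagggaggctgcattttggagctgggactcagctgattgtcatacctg
Traj33: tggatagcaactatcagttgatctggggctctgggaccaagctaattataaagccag
Trbj2-7: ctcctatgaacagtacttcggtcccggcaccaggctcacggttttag
Alpha J segments are 29 to 72 bases long and beta J segments 46 to 54 bases. Of 447 other rows with at most 75 exon bases, 2 (0.447%) were above 0 in any library, against 7.33% of rows of 76 to 150 bases, 16.6% of rows of 151 to 300 bases and 33.0% of rows of 301 to 600 bases. A J segment listed at 0 in these tables therefore says nothing of its use, and no J usage could be given. Trav11, the V segment of the invariant NKT cell receptor, was not analysed here.

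Over the 52 tested members, log2 differences were negative for 36 (69.2%), against 47.2% of all genes tested. The median was -0.12, against 0.01 over all genes tested, and without the gamma constant genes it was -0.11 over 49 members. Both dKO libraries were below both WT libraries in 15 members (28.8%), against 24.2% of all genes tested. They were above in 1 member (1.92%), Trav8d-1, against 26.6% of all genes tested. The share of negative differences moved with the libraries used. It was 78.8% without dKO replicate 1, 61.5% without dKO replicate 2, 78.8% without WT replicate 1 and 50% without WT replicate 2, while the share over all genes ran from 45.1% to 51%. Without WT replicate 2 the median of the members was -0.00119, against 0.03 over all genes.

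**Figure D4:**
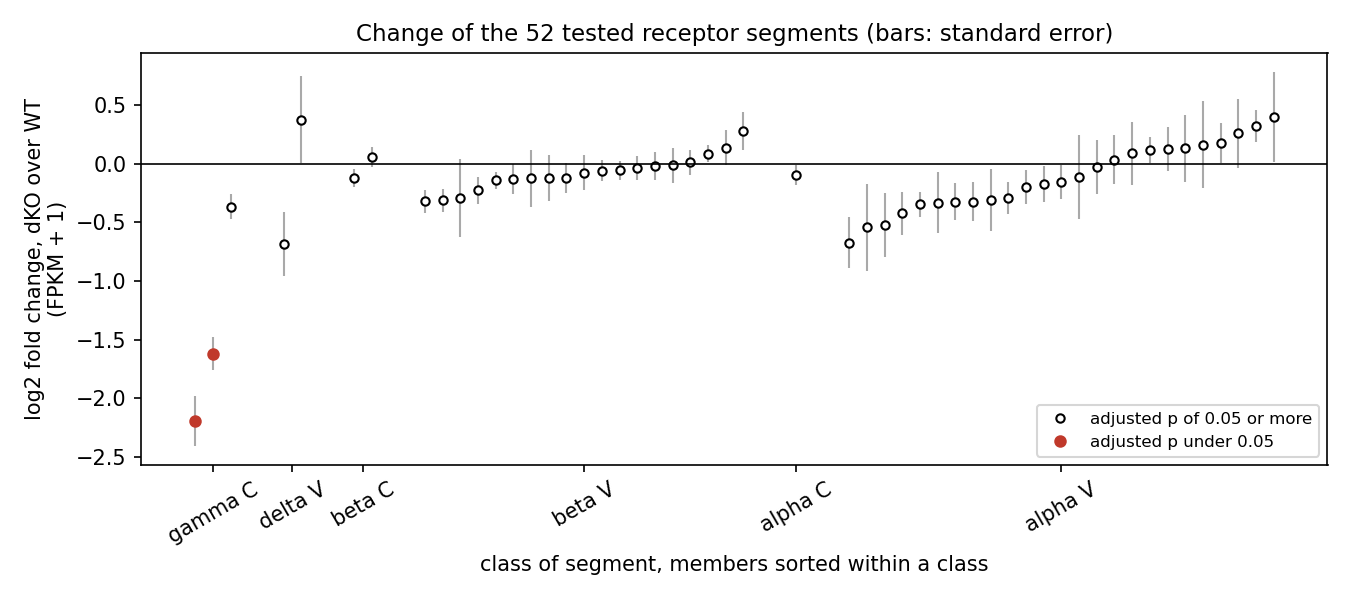
Log2 difference of each of the 52 tested members, dKO minus WT on the log2(FPKM + 1) scale, with its standard error, grouped by segment class. Tcrg-C2 and Tcrg-C4 lie at -1.62 and -2.20, and every other member lies between -0.68 and 0.40.

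Genes that act with the segments were described from lists of the CD3 complex and coreceptors, the recombination machinery and proximal receptor signalling. None of their tested genes passed the adjusted threshold by limma. Of the CD3 complex and coreceptors, 6 of 8 genes were tested, and by unadjusted p under 0.05 there were 2 higher and 2 lower in dKO, where 8.72% of all genes tested were higher and 8.63% lower. The CD3 chains, which carry the receptor signal, did not move together. Cd3e was at 382 and 363 FPKM in dKO Treg and 306 and 307 FPKM in WT Treg (limma adjusted p = 0.147), whereas Cd3d was at 326 and 351 FPKM in dKO Treg and 410 and 444 FPKM in WT Treg (limma adjusted p = 0.152). Cd3g was at 1104 and 1135 FPKM in dKO Treg and 882 and 986 FPKM in WT Treg (limma adjusted p = 0.222). The coreceptor gene Cd4 was at 187 and 264 FPKM in dKO Treg and 384 and 411 FPKM in WT Treg, with a log2 difference of -0.83 (SE 0.17, limma adjusted p = 0.136).

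Of the recombination genes, 10 of 13 were tested, none with an unadjusted p under 0.05. Hmgb1, whose protein helps the RAG enzymes bind DNA, had the largest difference among those tested, at 151 and 167 FPKM in dKO Treg and 139 and 144 FPKM in WT Treg (limma adjusted p = 0.332). Rag2 was listed at 0 in every library and Rag1 was at most 0.00404 FPKM. Dntt, whose enzyme adds bases at the joints, was at 0.292 and 0.553 FPKM in dKO Treg and 0.817 and 0.693 FPKM in WT Treg. The RAG genes, which drive the joining of segments in thymocytes, were thus at or near 0 in both groups. Of 10 genes of proximal signalling, all tested, 4 had an unadjusted p under 0.05, all lower in dKO, where 8.63% of all genes tested were. The adaptor gene Lcp2 had the most negative difference, at 332 and 346 FPKM in dKO Treg and 509 and 426 FPKM in WT Treg (log2 difference -0.46, SE 0.10, limma adjusted p = 0.151). The kinase gene Zap70 was at 128 and 133 FPKM in dKO Treg and 168 and 146 FPKM in WT Treg (limma adjusted p = 0.244). Of the genes of NFAT transcription factors, which receptor signals activate, Nfatc1 was at 56.1 and 57.7 FPKM in dKO Treg and 82.4 and 65.9 FPKM in WT Treg (limma adjusted p = 0.238). Nfatc2 was at 22.7 and 20.4 FPKM in dKO Treg and 27.6 and 24.5 FPKM in WT Treg (limma adjusted p = 0.281). In all 4 genes, named for the largest change of their list, both dKO libraries were below both WT libraries, as in 24.2% of all genes tested. Elsewhere in the list the same held for Cd28, and Lat was higher in both dKO libraries.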

How the data were processed

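RNA sequencing of sorted mouse Treg was used, with 2 dKO and 2 WT libraries. Per the labels' protocols, MACS enrichment of CD4 cells preceded the FACS sort, and the RNeasy Plus Mini and TruSeq Stranded mRNA kits served for RNA and libraries. The deposited values are FPKM made by the authors. STAR and Cuffdiff were used with GRCm38, per the submitters' processing notes. The sources used here give no versions, annotation or scaling. Reads of segments that share sequence may have been split or dropped, and exact zeros may be failed estimates.

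The tables hold 32767 genes, of which 32503 identifiers are in GENCODE vM21, which supplied coordinates, lengths and sequences. Of 270 receptor genes in that annotation, 148 have a row, and the others were not analysed here. A name search matched 145 of them, and 27 names that had turned into dates were restored by identifier. Relative depth was read from ratios of values under 0.3 FPKM.

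The log2(FPKM + 1) values were tested with limma 3.58.1 (R 4.3.3), two-sided, with a variance trend and 2 residual and 2.85 prior degrees of freedom. P-values were adjusted over all genes tested by the Benjamini-Hochberg method, with a threshold of 0.05. The procedure was tested on simulated data. Class sums and effective numbers used exact permutation tests. Named segments were all constant genes, the 3 highest of each V class, all that passed, up to 5 per direction with the largest change among those of at least 5 FPKM without overlap, the 5 with the largest ratio between replicates among those with a mean of at least 5 FPKM, and invariant receptor segments. From each gene list, up to 4 with the largest change were named. The members, lists and rules were chosen with earlier results of these data known. Other filters, pseudocounts, scalings and fits were tried. Some marker genes of the lists are not reported here. Fragment counts were not used here, so no counting interval is given.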

Additional observations from a re-analysis of the deposited data

How the results depend on the processing

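Over all genes tested, 34 genes were called higher and 41 lower in dKO. Higher calls numbered 6 with no filter, 19 with no variance trend and 7 to 17 with 1 library left out. Lower calls numbered 0 with no filter, 26 at a mean of at least 5 FPKM, 72 with genes listed at 0 left out, 24 with no variance trend and 2 to 34 with 1 library left out. Of the segments, 2 were called lower. The count was 0 with no filter and with any 1 library left out, 1 (Tcrg-C2) with no variance trend, and 0 at a mean of at least 5 FPKM, a filter that removes Tcrg-C2 and Tcrg-C4. Their limma adjusted p was 0.156 and 0.176 with no filter. Both calls held with pseudocounts of 0.1 and 0.5 FPKM, where the log2 differences at 0.1 were -2.44 and -3.58, and with median scaling or quantile normalization.

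The labels give replicate numbers only, and same-numbered libraries did not deviate together (r = 0.0141 over 10710 genes). With the replicate number as a block, 12 genes were called higher, 9 lower and 0 segments. Tcrg-C2 then had a limma adjusted p of 0.114 and Tcrg-C4 of 0.0809.

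With 1 library left out, a fit in which the lone sample is assumed to vary like the other group, the log2 difference turned round for 13 named segments, none past the threshold. The lowest and highest values were -0.59 and 0.37 for Trav1, -0.24 and 0.31 for Trav13-1, -0.27 and 0.53 for Trav13-2, -0.00746 and 0.25 for Trav14-1, -0.34 and 0.0243 for Trav14n-3, -0.17 and 0.69 for Trav19, -0.62 and 0.0111 for Trav8d-2, -0.0324 and 0.15 for Trbc2, -0.16 and 0.0413 for Trbv13-2, -0.12 and 0.15 for Trbv15, -0.48 and 0.23 for Trbv30, -0.13 and 0.0226 for Trbv31, and -0.0547 and 0.81 for Trdv2-2. Without the highest member, the log2 ratio of the class sum was -0.12 for beta C and -3.14 for gamma C, and for delta V it turned round to 0.15. Leaving out the highest member was not run for alpha C, nor the filter on members for gamma V, since no member is left. Depth limits the segments under 1 FPKM, which went untested.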
